A study of Ovis aries with 23 samples.

Results

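Expression of 4 clock repressor genes was followed in the pars tuberalis (PT) of sheep: NR1D1 (ENSOARG00000013027), NR1D2 (ENSOARG00000004526), CIART (ENSOARG00000020795) and BHLHE41 (ENSOARG00000019968). They were chosen by name, with earlier results of these data known, and are 4 of the 25197 genes counted in each of 23 RNA-seq samples. The PT is the melatonin-sensitive part of the pituitary stalk, and the study asked how its transcriptome changes when short photoperiods (SPs) give way to long photoperiods (LPs). All samples were PT tissue of neutered male Scottish blackface sheep, 5 on SPs and 6 at each of days 1, 7 and 28 after the switch to LPs. The sample titles carry a number within each group, from 1 to 5 on SPs and from 1 to 6 on LPs. The genes were also compared between odd and even numbers, a split likewise chosen with earlier results known. The labels do not say what the number marks, the hour at which each sample was collected is not given in the sources used here, and the labels do not state that samples came from separate animals, so p-values measure the spread between these samples.

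The circadian clock is a loop of transcription factors. CLOCK and ARNTL (also called BMAL1) bind E-box sequences and switch on their own repressors, among them the period and cryptochrome genes. NR1D1 and NR1D2 encode the nuclear receptors REV-ERBα and REV-ERBβ, which form a second loop: they bind elements in the ARNTL gene and silence it. CIART (also called CHRONO) and BHLHE41 (also called DEC2) act on the first loop, CIART by binding the ARNTL complex and BHLHE41 by occupying E-boxes. In the PT the nightly melatonin signal, which is longer on SPs, sets the timing of clock genes, and EYA3, a coactivator of the thyrotropin gene TSHB, is a known LP response.

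Depth and tissue content limit what these libraries can show. Total counts ranged from 307952 in LP day 1 sample 4 to 4413929, so that 3 counts, taken as the lowest detectable level, equalled 9.74 CPM (counts scaled to library size) in that sample and 1.62 CPM or less in the other samples. The 4 repressors had from 4 counts (CIART in LP day 1 sample 4) to 1580 counts (NR1D1 in LP day 7 sample 1). LP day 1 samples 3 and 4 were nearly alike, with a mean chi-square of 1.14 per gene against 1.75 to 40.9 for all other pairs within groups, a comparison that covers counting error only and cannot show whether they are separate samples. They were kept as 2 samples, as labelled, and summed or left out as alternatives. The summed level of the PT thyrotroph markers TSHB, CGA, EYA3, MTNR1A and CHGA lay between 6727 and 15087 CPM over all samples, and that of the pars distalis markers PRL, GH1, POU1F1, POMC, LHB and FSHB between 34994 and 272699.5 CPM, so every sample held pars distalis RNA. Of these markers, MTNR1A alone was at 0, in 1 LP day 1 sample. In such bulk tissue, fewer cells of a type and less RNA per cell cannot be told apart.

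NR1D1, the first of the REV-ERB genes, was found at 145, 64.3, 109.6, 65.8 and 72.8 CPM in SP samples 1 to 5, normalized by edgeR's trimmed mean of M values (TMM) over all samples. At LP day 1 the lowest, median and highest samples were 68.7, 97.4 and 152 CPM, which overlapped the SP range. At LP day 7 the 6 samples split: samples 1, 3 and 5 stood at 458, 257 and 298 CPM, whereas samples 2, 4 and 6 stood at 67.7, 84.8 and 77.9 CPM. The end of NR1D1 overlaps that of the oppositely transcribed gene THRA in mammals, and as no strand setting is given for the counts, reads from such an overlap could not be told apart. All odd-numbered day 7 samples lay above every SP sample, and the even-numbered ones lay within the SP range. At LP day 28, sample 5 (277 CPM) was high, and the other 5 samples ranged from 73.6 to 128 CPM. The coefficient of variation among samples was 38.3% for SP samples and 30.6%, 76.2% and 58.1% for days 1, 7 and 28 of LPs.

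NR1D2, the second REV-ERB gene, varied over a smaller range. On SPs its values were 42.6, 17.9, 43.6, 35.3 and 31.3 CPM in samples 1 to 5. At LP day 1 they ran from 35.0 over a median of 42.1 to 64.0 CPM, the highest in sample 2. LP day 7 samples 1, 3 and 5 held 83.2, 70.1 and 88.8 CPM, above every SP sample, and samples 2, 4 and 6 held 32.1, 51.6 and 38.1 CPM. Here too the odd and even samples of day 7 did not overlap. At LP day 28 the 6 samples stayed close together, from 34.7 to 57.7 CPM with a median of 49.9 CPM, and the highest of them was sample 6.

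CIART had few counts on SPs (14 to 46 per sample), fewer than the other 3 genes. It stood there at 10.6, 6.09, 13.3, 4.54 and 4.80 CPM in samples 1 to 5, and at LP day 1 between 6.56 and 12.4 CPM with a median of 10.1 CPM. At LP day 7 it was measured at 58.6, 37.0 and 58.5 CPM in samples 1, 3 and 5 and at 10.4, 11.8 and 13.7 CPM in samples 2, 4 and 6. At LP day 28, samples 1, 3 and 5 held 40.9, 17.6 and 74.6 CPM and samples 2, 4 and 6 held 7.53, 16.5 and 10.5 CPM. The odd samples lay above the even ones on both days, but on day 28 the gap between sample 3 (odd) and sample 4 (even) was small. The highest day 28 sample held 9.90 times as much CIART as the lowest.

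BHLHE41 had the smallest coefficient of variation of the 4 genes on SPs (15.2%) and at LP day 1 (22.3%). Its SP values were 42.4, 35.9, 47.0, 31.4 and 39.8 CPM, and LP day 1 samples ran from 23.7 over a median of 32.3 to 41.9 CPM. LP day 7 samples 1, 3 and 5 reached 191, 112 and 127 CPM, while samples 2, 4 and 6 held 40.1, 40.0 and 32.6 CPM, all within the SP range. At LP day 28, samples 1 and 5 stood highest with 68.6 and 93.5 CPM, and the other 4 samples lay between 34.9 and 55.8 CPM. Sample 3 of day 28, though odd, held 44.9 CPM and fell among the even samples.

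**Figure D1:**
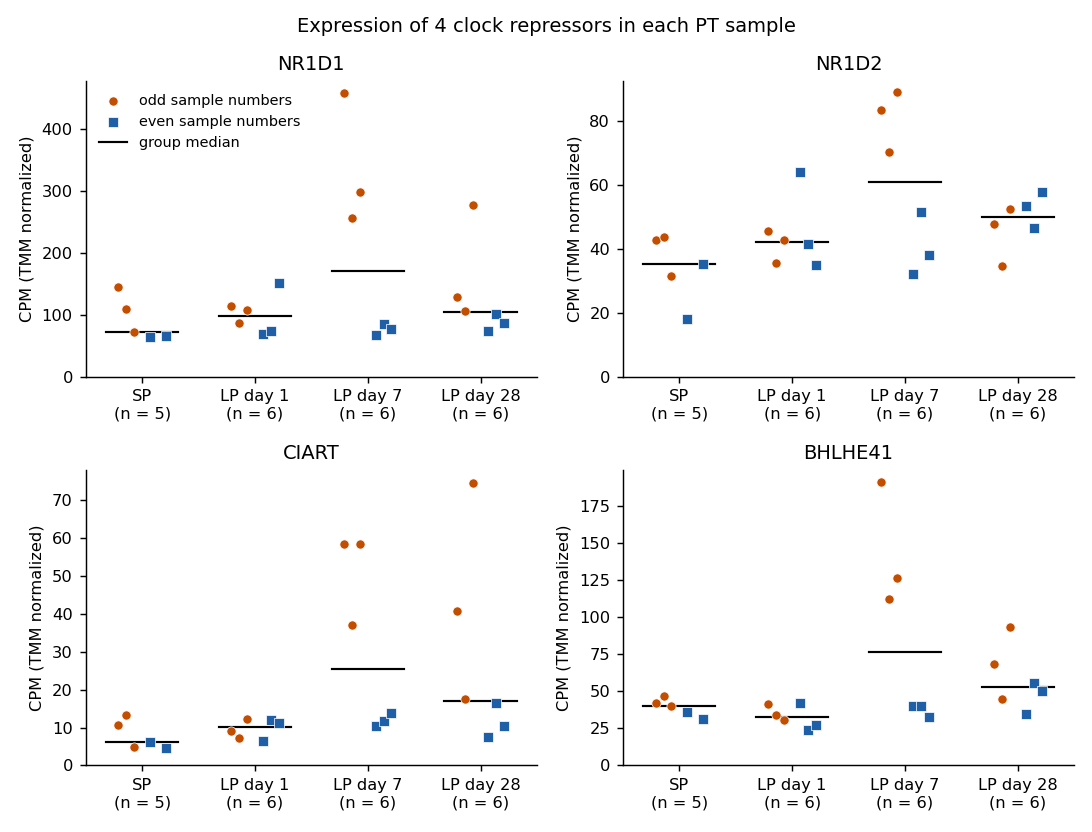
TMM normalized CPM (vertical axes, linear) of NR1D1, NR1D2, CIART and BHLHE41 in each of the 23 PT samples by photoperiod group, with circles for odd and squares for even sample numbers and a line at the group median. In LP day 7 the odd samples (for NR1D1, 257 to 458 CPM) lie above the even samples (67.7 to 84.8 CPM) in all panels.

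The first long day was compared with SPs to ask whether the repressors respond at once. No gene of 14920 was DE (0% called), which here means a false discovery rate (FDR, Benjamini-Hochberg adjusted over all genes tested) under 0.05 in the quasi-likelihood test of edgeR, although 497 genes had an unadjusted p under 0.05 and DESeq2 called 2. On the log2 scale, the changes were 0.15 (SE 0.23) for NR1D1, 0.37 (SE 0.21) for NR1D2, 0.23 (SE 0.32) for CIART and -0.20 (SE 0.16) for BHLHE41. The 95% intervals ran from -0.33 to 0.64 for NR1D1 and from -0.43 to 0.90 for CIART. They do not reach the point estimates that the same 2 genes had at LP day 7, which carry their own error. The day 7 interval was 0.22 to 2.12 for NR1D1, which overlaps that of day 1, and 0.95 to 3.04 for CIART, which does not. Both days were set against the same SP samples. In the direct edgeR test of day 7 against day 1, neither gene passed (FDR 0.882 and 0.468).

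At LP day 7, all 4 repressors had higher means than on SPs, but in the comparison of all samples the spread within day 7 was too large for any of them to pass, with 0.266% of 15030 genes called. CIART had a mean of 31.7 ± 23 CPM (SD, n = 6) against 7.86 ± 3.88 CPM (SD, n = 5), a 3.98-fold difference (log2 1.99, SE 0.49) that did not pass (edgeR FDR 0.0852). NR1D1 stood at 207 ± 158 against 91.4 ± 35.0 CPM (2.25-fold, edgeR FDR 0.243), NR1D2 at 60.6 ± 23.7 against 34.2 ± 10.4 CPM (1.77-fold, FDR 0.181) and BHLHE41 at 90.5 ± 63.8 against 39.3 ± 5.98 CPM (2.29-fold, FDR 0.181). DESeq2 called CIART alone of the 4 (adjusted p = 0.0276). The median log2 change was 1.18 over the 4 genes and -0.01 over all genes tested. No member had its 6 day 7 samples all above the 5 SP samples, a separation that 1.26% of the genes tested showed. The 3 odd day 7 samples alone lay above every SP sample for 4 of 4 members, against 6.41% of the genes tested.

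When the parity of the sample number was added to the model as a covariate, all 4 repressors passed at LP day 7, with 2.22% of 15030 genes called. The estimates hardly moved but their errors fell. CIART rose 3.98-fold (log2 1.99, SE 0.28, edgeR FDR 0.00327), BHLHE41 rose 2.11-fold (log2 1.08, SE 0.24, FDR 0.0343), NR1D1 2.04-fold (log2 1.03, SE 0.25, FDR 0.0435) and NR1D2 1.82-fold (log2 0.86, SE 0.18, FDR 0.0261). This model gives odd and even samples the same change, and the fits within each parity show how far the estimates differed. Parity was chosen with earlier results of these data known. The calls made with it, here and at LP day 28, are therefore not from an independent test.

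Within odd numbers, day 7 was compared with SPs over 3 samples against 3, in a fit of all 23 samples that shared 1 estimate of the spread for each gene. The split was chosen with earlier results known, and the odd day 7 samples lay above every SP sample for all 4 genes. The FDRs are therefore not from an independent test. Of the 4 repressors, 3 rose, where 0.198% of 15653 genes were called in either direction. BHLHE41 rose 3.29-fold (log2 1.72, SE 0.23, edgeR FDR 4.7e-04), CIART 5.29-fold (log2 2.40, SE 0.40, FDR 0.00579) and NR1D1 3.05-fold (log2 1.61, SE 0.30, FDR 0.0191). NR1D2 stood 2.03-fold higher without passing (log2 1.02, SE 0.23, FDR 0.0758). BHLHE41 kept its call whichever sample was left out, whereas without SP sample 5 CIART had an FDR of 0.0559 and NR1D1 one of 0.170. NR1D1 also lost its call without LP day 7 sample 1 (FDR 0.147) or SP sample 3 (FDR 0.0787).

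Within even numbers, with 3 samples against 2, no repressor passed at LP day 7 and 0.0511% of genes were called. The log2 changes were 0.23 (SE 0.35) for NR1D1, 0.60 (SE 0.28) for NR1D2, 1.16 (SE 0.53) for CIART and 0.15 (SE 0.28) for BHLHE41. The estimate for BHLHE41 was smaller than within odd numbers by 1.56 (SE 0.36) on the log2 scale, with an unadjusted p of 2.1e-04 in edgeR (from the model, not an exact test), and that for NR1D1 by 1.38 (SE 0.46, p = 0.00626 in edgeR's test). After Benjamini-Hochberg adjustment over all genes in edgeR, neither difference passed (FDR 0.421 and 0.998). For CIART the difference was 1.25 (SE 0.67) and for NR1D2 0.43 (SE 0.36).

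LP day 28 was compared with the same 5 SP samples, which both comparisons share. With all samples none passed, with 0.670% of 14929 genes called: CIART was 3.45-fold higher (log2 1.79, SE 0.50, edgeR FDR 0.112), and NR1D1, NR1D2 and BHLHE41 were 1.39-, 1.41- and 1.46-fold higher (FDR 0.504, 0.246 and 0.234). With parity as a covariate, CIART rose 3.51-fold (log2 1.81, SE 0.38, edgeR FDR 0.0315), the other 3 did not pass, and 1.03% of genes were called. Within odd numbers CIART rose 4.52-fold (log2 2.18, SE 0.40, edgeR FDR 0.0113), where 0.211% of genes were called. That call was lost without LP day 28 sample 5 (log2 1.61, edgeR FDR 0.113), without SP sample 5 (log2 1.86, FDR 0.107), or when only these 6 samples were fitted (FDR 0.135).

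Within even numbers at LP day 28, none of the 4 repressors passed and 0.307% of genes were called. NR1D2 came closest with a 1.96-fold higher level (log2 0.97, SE 0.28, edgeR FDR 0.131), whereas within odd numbers it differed by only 0.18 (SE 0.24) on the log2 scale. The pars distalis markers were also higher at LP day 28, with a summed median of 177026 CPM against 125161 CPM on SPs, and their part in these values was not tested.

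**Figure D2:**
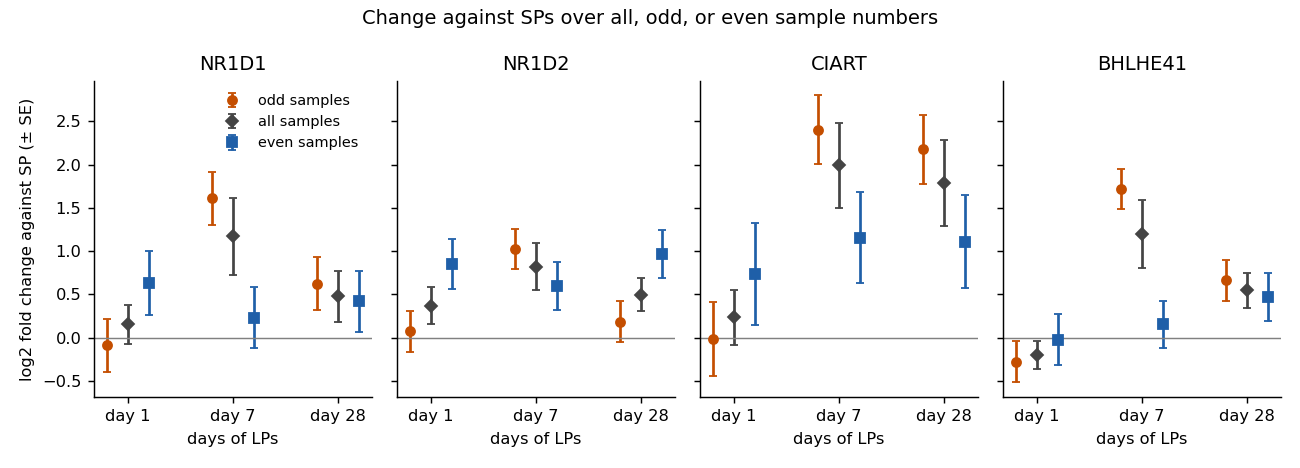
Log2 fold change against SPs (vertical axis, bars ± SE) of each repressor at LP days 1, 7 and 28, over all samples (grey diamonds), odd numbers (orange circles) and even numbers (blue squares). BHLHE41 at day 7 stands at 1.72 within odd and 0.15 within even numbers, whereas CIART lies above 1 in every fit of days 7 and 28.

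Neither neighbouring LP comparison called a repressor. From LP day 1 to day 7, CIART was 3.40-fold higher (log2 1.76, SE 0.43, edgeR FDR 0.468) and BHLHE41 2.61-fold higher (log2 1.38, SE 0.37, FDR 0.585), with 0.0201% of 14897 genes called. From day 7 to day 28 the log2 differences were -0.69 (SE 0.43) for NR1D1, -0.32 (SE 0.21) for NR1D2, -0.21 (SE 0.52) for CIART and -0.65 (SE 0.37) for BHLHE41, with 0.00672% of 14890 genes called. Within odd numbers the day 28 level of BHLHE41 was lower by 1.06 (SE 0.23, edgeR FDR 0.121), of NR1D1 by 0.99 (SE 0.30, FDR 0.325) and of NR1D2 by 0.84 (SE 0.23, FDR 0.294), while CIART differed by -0.23 (SE 0.36). The order of mean levels was day 7, day 28, LP day 1, SP for NR1D1, NR1D2 and CIART, and day 7, day 28, SP, LP day 1 for BHLHE41. In the tests over all samples, neither day 7 and day 28 nor SPs and LP day 1 differed beyond their spread, and LP days 1 and 28 were not tested against each other.

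Even and odd sample numbers were then compared directly within LP days 7 and 28. The 4 genes and this split were chosen with earlier results of these data known, so the p-values are not from an independent test. Of the 4 repressors, 3 were lower in even numbers, where 1.02% of 14890 genes were called. CIART was 4.01-fold lower (log2 -2.01, SE 0.28, edgeR FDR 8.1e-04), NR1D1 2.93-fold lower (log2 -1.55, SE 0.25, FDR 0.00283) and BHLHE41 2.38-fold lower (log2 -1.25, SE 0.24, FDR 0.0124). NR1D2 differed by -0.39 (SE 0.20) and did not pass (edgeR FDR 0.524). The median log2 difference was -1.40 over the 4 genes and 0.00 over all genes tested. An exact permutation of parity within each day (400 arrangements, two-sided) gave p = 0.005 for NR1D1 and CIART, the smallest p it allows, p = 0.015 for BHLHE41 and p = 0.165 for NR1D2. The call for BHLHE41 was lost without LP day 7 sample 2 (edgeR FDR 0.0526) or sample 4 (FDR 0.052).

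The differences were then read in each group, from the fit of all 23 samples. At LP day 7, NR1D1 was 4.37-fold (log2 -2.13, SE 0.31, edgeR FDR 0.00154), CIART 4.27-fold (log2 -2.10, SE 0.39, FDR 0.0219) and BHLHE41 3.79-fold (log2 -1.92, SE 0.24, FDR 1.4e-04) lower in even numbers, and NR1D2 was 1.98-fold lower without passing (log2 -0.98, SE 0.23, FDR 0.107). A total of 22 genes were called there, 0.141% of 15653, of which NR1D1, CIART and BHLHE41 were 3. Every odd day 7 sample lay above every even one for all 4 repressors, a pattern that 7.78% of the genes tested showed. At day 28 the same held for NR1D1 and CIART, against 7.12% of genes, but no repressor passed and 0.0319% of genes were called. CIART there was 3.76-fold lower in even numbers (log2 -1.91, SE 0.40, edgeR FDR 0.0966), NR1D1 1.94-fold lower (FDR 0.590) and BHLHE41 1.46-fold lower (FDR 0.826), and NR1D2 was 1.17-fold higher (FDR 0.936).

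The same comparison was made in SPs and LP day 1. None of the 4 repressors passed and 0% of 14920 genes were called in edgeR, with 766 genes at an unadjusted p under 0.05 and 2 called by DESeq2. The log2 differences were -0.35 (SE 0.23) for NR1D1, -0.13 (SE 0.22) for NR1D2, -0.43 (SE 0.32) for CIART and -0.23 (SE 0.16) for BHLHE41. In SPs alone they were -0.75 (SE 0.35) for NR1D1, -0.56 (SE 0.28) for NR1D2, -0.85 (SE 0.53) for CIART and -0.36 (SE 0.27) for BHLHE41, and at LP day 1 they lay between -0.10 and 0.22. The difference between the pooled values and those of LP days 7 and 28 was itself tested over all 23 samples, where 0.0319% of 15653 genes passed and no repressor did. It was -1.56 (SE 0.45) for CIART, -1.19 (SE 0.37) for NR1D1 and -1.02 (SE 0.32) for BHLHE41, with unadjusted p of 0.00204, 0.00338 and 0.00392 in edgeR's test and FDR of 0.426, 0.540 and 0.577 over all genes.

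**Figure D3:**
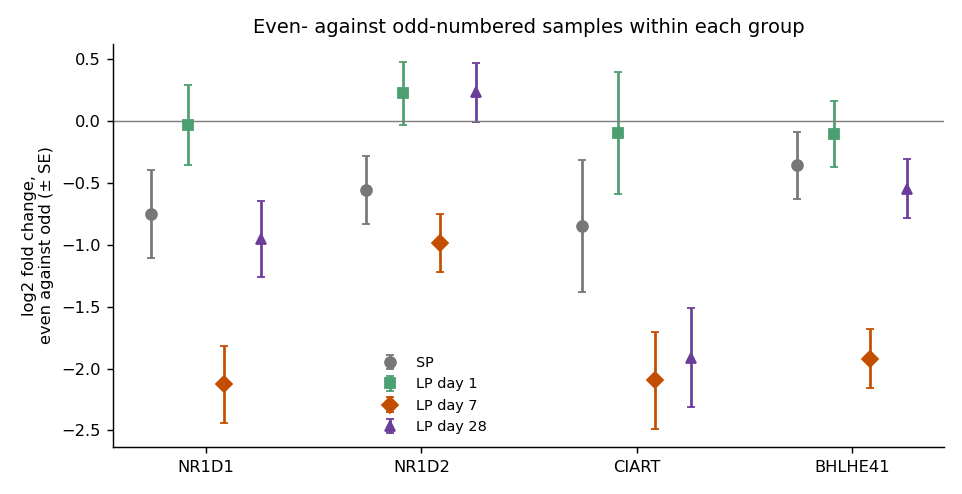
Log2 fold change of even- against odd-numbered samples (vertical axis, bars ± SE) for each repressor within each of the 4 groups. LP day 7 stands between -2.13 and -1.92 for NR1D1, CIART and BHLHE41 and at -0.98 for NR1D2, and LP day 1 lies between -0.10 and 0.22 for all 4 genes. The nearly alike LP day 1 samples 3 and 4 lie on opposite sides of the split.

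By summed level, 1 of the marker lists, read from a single gene, separated odd from even samples of day 7. For scale, 7.78% of the genes tested had every odd day 7 sample above every even one. The share for the opposite order was not counted. The even day 7 samples held 27.8 to 68.5 CPM of PTPRC, the leukocyte antigen CD45 and the only 1 of 3 blood and immune markers paired with an identifier, and the odd ones 16.8 to 22.6 CPM. At day 28 PTPRC overlapped, with 30.5 to 46.4 CPM in even and 21.3 to 87.6 CPM in odd samples. The other marker sums of odd and even day 7 samples overlapped: 7975 to 11223 against 8972 to 10296 CPM for thyrotroph markers, 46515 to 113215 against 75356 to 176716 CPM for pars distalis markers and 969.7 to 1317 against 841 to 1471 CPM for the folliculostellate markers S100B, VIM and GFAP. Such sums hide their smaller members: EYA3, in the thyrotroph list, stood at 332 to 969 CPM in odd and 30.9 to 41.2 CPM in even day 7 samples. Overlap of the sums therefore does not show that cell content was alike. The part of the marker lists in the differences was not tested, apart from a fit with GH1 as a covariate. NR1D1, CIART and BHLHE41 stayed called in it in LP days 7 and 28. GH1 is 1 of 6 pars distalis markers and does not stand for PTPRC or the other lists. Alignment folder numbers in the file headers run through sample numbers 1 to 3 and repeat for 4 to 6. With these 2 sets as a covariate the same 3 repressors were called. Each set holds odd and even numbers, so this covariate does not stand for the split by parity.

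The ratio of 2 genes' counts within a sample does not depend on library size or normalization, and was used to ask whether the repressors changed in step. Across 18 tests (6 pairs, 3 comparisons), exact two-sided permutation tests over samples found 5 with a Benjamini-Hochberg adjusted p of 0.018. From SPs to LP day 7, CIART changed more than NR1D1, by 0.91 on the log2 scale (exact permutation p = 0.00216 over 462 arrangements). In single samples the ratio of CIART to NR1D1 counts was 0.0659 to 0.121 on SPs and 0.128 to 0.196 at LP day 7. The groups did not overlap, but the gap was small and its SP side, sample 3, rests on 46 CIART counts. The share of gene pairs with such a gap was not counted. LP day 1 sample 4 reached 0.16 on 4 CIART counts, and LP day 28 sample 2 had 0.102. From SPs to LP day 7 the shift was 0.88 within odd and 0.94 within even numbers. CIART also changed more than BHLHE41, by 0.88 (exact p = 0.00433), again with a like shift within odd (0.82) and even numbers (1.02).

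The other 3 ratios that passed all set NR1D2 apart by sample number. Within LP days 7 and 28, even against odd numbers changed the ratio of NR1D1 to NR1D2 by -1.09, of NR1D2 to CIART by 1.55 and of NR1D2 to BHLHE41 by 0.83 on the log2 scale (exact p = 0.005 for each, the smallest of 400 arrangements). The ratio of NR1D1 to NR1D2 counts was 3.36 to 5.51 in odd and 1.65 to 2.11 in even samples of day 7. Between NR1D1 and BHLHE41 the ratio moved little: by -0.02 from SPs to day 7 (adjusted p = 0.955, exact test) and by -0.26 between even and odd numbers (adjusted p = 0.146, exact test). From LP day 7 to day 28, no ratio passed, with differences between -0.21 and 0.16.

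**Figure D4:**
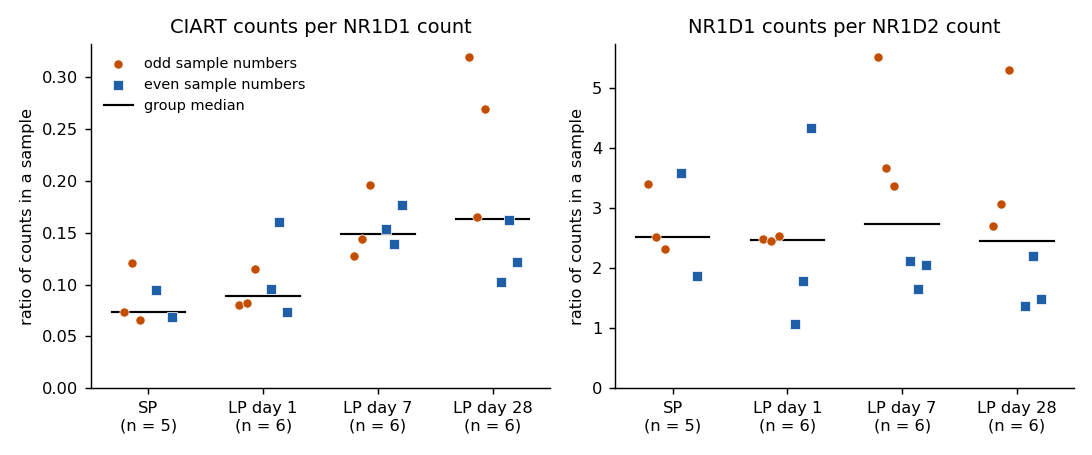
Ratio of CIART to NR1D1 counts (left) and of NR1D1 to NR1D2 counts (right) in each sample by group, with circles for odd and squares for even numbers and a line at the group median. The left ratio is higher in all 6 day 7 samples (0.128 to 0.196) than in all SP samples (0.0659 to 0.121), and the right one separates odd from even samples of LP days 7 and 28. The share of gene pairs that separate in these ways was not counted.

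Deviations within groups were compared between the 4 genes. Over the 23 samples, those from group means in log2 CPM correlated most between NR1D1 and CIART (Pearson r = 0.89, Spearman rho = 0.91), and the permutation p was 1.0e-05 for both, the smallest that 100000 resamples can give. The other 5 pairs had r between 0.46 (NR1D2 and CIART) and 0.87 (NR1D1 and BHLHE41), rho between 0.44 and 0.78, and permutation p adjusted over the 6 pairs of at most 0.0284 for r and 0.0367 for rho. Without the 2 samples farthest from the median of the first gene, r lay between 0.40 and 0.85. Odd and even samples gave different values: r was 0.70 to 0.93 over the 12 odd samples (adjusted permutation p at most 0.0113) and -0.55 to 0.54 over the 11 even samples, where no pair passed (smallest adjusted permutation p = 0.261). With the means of group and parity both removed, the 3 pairs with NR1D2 lost their calls (r = 0.17 with NR1D1, 0.21 with CIART and 0.42 with BHLHE41, adjusted permutation p = 0.426, 0.406 and 0.0706). The other 3 pairs stayed under 0.05, with r of 0.75 for NR1D1 and CIART (adjusted permutation p = 4.8e-04). For BHLHE41, r was 0.49 with NR1D1 and 0.48 with CIART (adjusted permutation p = 0.0439 for both). All these permutations shuffled deviations freely over samples, without allowance for the means removed, so their p-values can be too small. The pairs of BHLHE41 with NR1D1 and CIART lay close to the threshold, and whether they would pass with such allowance was not tested.

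The other clock genes were read from a list of 22, of which 10 could be paired with an identifier through the study's own gene tables. Those tables hold mainly genes the study selected on these samples, so the list is not independent evidence. At LP day 7, ARNTL2, a paralog of ARNTL, was the 1 of 10 called higher (edgeR FDR 0.0463), with 5 to 39 counts per sample against 0 to 3 on SPs, and it was called again at LP day 28 (11 to 38 counts per sample, edgeR FDR 7.9e-04). Its SP counts were at or under the 3-count floor and it passed the filter on low values only through the LP samples, so no fold is given. ARNTL, the target of the REV-ERB proteins, was lower by 0.63 at day 7 (SE 0.19, edgeR FDR 0.162) and fell by 0.86 at day 28 (SE 0.19, FDR 0.0481). CLOCK, PER1, PER3, CRY1, CRY2, DBP, TEF and FBXL21 did not pass on either day. The median log2 change over the 10 genes was 0.35 at day 7 and 0.28 at day 28, against -0.01 over all genes tested on both days.

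Between even and odd numbers of LP days 7 and 28, 3 of the 10 other clock genes passed. CRY1, a repressor of the first loop, was 9.09-fold higher in even numbers (log2 3.18, SE 0.18, edgeR FDR 2.9e-08), opposite in sign to the 3 repressors called. DBP and TEF, output factors that bind D-boxes, were lower by 0.90 (SE 0.14, edgeR FDR 0.00278) and 0.58 (SE 0.10, FDR 0.00570). PER1 and PER3 differed by -0.59 (SE 0.16, edgeR FDR 0.112) and -0.51 (SE 0.13, FDR 0.0892), and ARNTL by -0.10 (SE 0.14, FDR 0.879). In SPs and LP day 1 none of the 9 genes tested passed.

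CRY1 also split the SP and LP day 1 samples, though not by parity. In SP samples 1 and 3, which held the most of all 4 repressors in that group, CRY1 stood at 22.5 and 22.8 CPM, and in the other 3 SP samples at 206 to 406 CPM. At LP day 1 it stood at 28.3 and 34.5 CPM in samples 1 and 6, against 209 to 282 CPM in the other 4. These 2 samples held the most NR1D1 of that group but not the most of the other 3 repressors. NR1D2 was highest in sample 2 and lowest in sample 6 (35.0 CPM), with sample 1 (45.7 CPM) below sample 2 alone. CIART was highest in samples 5 and 4 (12.4 and 11.9 CPM), then in sample 6 (11.2 CPM). BHLHE41 in sample 6 (27.4 CPM) was above sample 4 alone, while sample 1 (41.7 CPM) was close to the highest, sample 2 (41.9 CPM). The places of sample 4 rest on only 4 CIART and 8 BHLHE41 counts. In LP days 7 and 28 CRY1 was 16.9 to 29.3 CPM in all odd and 138 to 302 CPM in all even samples. Whether time of collection differed between these samples was not tested.

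**Figure D5:**
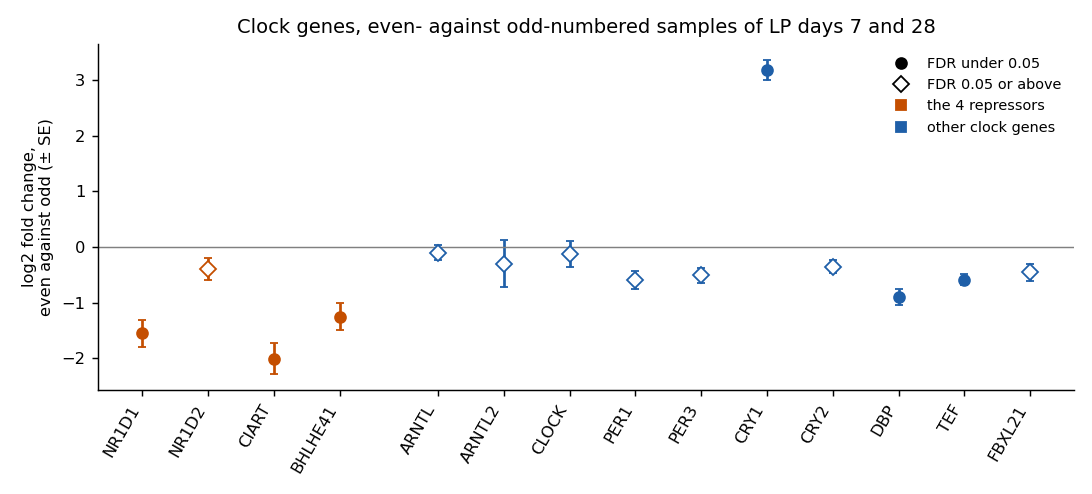
Log2 fold change of even- against odd-numbered samples of LP days 7 and 28 (vertical axis, bars ± SE) for the 4 repressors (orange) and 10 other clock genes (blue), with filled circles for FDR under 0.05 and open diamonds for the rest. CRY1 stands at 3.18 and CIART at -2.01.

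The genes whose pattern over the 23 samples was most like that of each repressor were sought among genes with a symbol, by Pearson's r of log2 CPM. Of 15649 genes that passed a filter on low values, 1117 had a symbol, from tables of mainly genes the study selected on these samples. Genes without a symbol could not be named, and some ranked higher. Among all genes TNFRSF12A and ELOVL6 each ranked 6, ATP8B1 8, SIK2 18 and MTF1 21. These are descriptions, and all points share their libraries. The order rests on r: by Spearman's rho, EYA3 had 0.66 with NR1D1, 0.65 with CIART and 0.66 with BHLHE41, below NAB2 (0.79 with NR1D1), ANGPTL2 (0.78) and DBP (0.82 with CIART) and ELOVL6 (0.81 with BHLHE41). For NR1D1 they were NAB2, a corepressor of early growth response factors (r = 0.88, the highest of all genes), EYA3 (r = 0.86) and TNFRSF12A (r = 0.81). For CIART they were EYA3 (r = 0.89, the highest of all genes), ANGPTL2 (r = 0.88) and DBP (r = 0.85), and for BHLHE41 EYA3 (r = 0.88, again the highest), the fatty acid elongase ELOVL6 (r = 0.80) and ATP8B1 (r = 0.80). NR1D2 had a different list of PPP2R1B (r = 0.80), the kinase SIK2 (r = 0.78) and MTF1 (r = 0.78), of which PPP2R1B ranked 8 among all genes. EYA3 itself stood at 332 to 969 CPM in odd and 30.9 to 41.2 CPM in even samples of LP day 7, and at 23.02 to 37.1 CPM on SPs.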

How the data were processed

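PT RNA of 23 samples was sequenced, and the authors deposited raw counts of reads per Ensembl sheep gene, 1 table per sample. The submitters' processing notes name Bowtie, HTSeq and the genome build Oar_v3.1, whereas the file headers have the form that featureCounts writes, so which program counted was not settled. Multi-mapping and strand settings are not given in the sources used here. No column of other samples was present.

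Counts were analysed with R 4.3.3 and edgeR 4.0.16 as deposited. For each comparison, a gene was kept when its level exceeded 1 CPM in a number of samples no lower than the size of the smaller set, TMM factors were computed, and DE was called over all genes by the quasi-likelihood test (glmQLFit, glmQLFTest) at a Benjamini-Hochberg FDR under 0.05. Standard errors were obtained from each log2 fold change and its F statistic. Comparisons of 2 groups used their samples only. Even against odd used group as a covariate, and changes within a parity were contrasts of 8 sets of group and parity over 23 samples. CPM per sample were TMM normalized over 23 samples, with a prior count of 2 on the log2 scale. No molecular identifiers are described, and the 3-count floor covers counting error only. On simulated data with 200 changed genes among 14874 (LP day 7 against SPs), the test recovered 67.0% of 2-fold and 90.9% of 4-fold changes, with 4.32% false calls. For even against odd numbers of LP days 7 and 28 it recovered 67.7% and 91.8%, with 5.42% false calls. The changed genes were drawn at random, and the simulated day 7 samples held no odd and even split. These rates are therefore not those of the 4 repressors.

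The 4 genes, the lists of clock genes and markers, and the odd and even split were chosen with earlier results of these data known. The genes named are the 4 repressors, the clock list, the marker lists, and for each repressor the 3 genes with a symbol of highest r over 23 samples among genes above 1 CPM in 5 or more samples. Symbols came from the study's gene tables, which pair 1259 identifiers (PER1 is listed there as MPER1). Neuron and endothelium markers had no pairing, and 2 genes of the clock list are not reported here. Neither sequences nor coordinates of the files' build were used here. Alternatives were DESeq2 1.42.0, other normalizations and filters, a single fit of all groups, the sample number as a replicate block, parity, GH1 or number set as covariates, and samples left out.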

Additional observations from a re-analysis of the deposited data

How the results depend on the processing

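Of 348 values of the 4 genes under other settings, 334 kept their direction and side of the threshold, as did 488 of 500 with 1 sample left out. Many lay far from the threshold and could hardly cross it, as at LP day 1, where every edgeR or DESeq2 FDR was at least 0.965. Same-numbered samples' deviations from group means correlated between -0.17 and 0.26 over all genes, and above 0.1 in 5 of 33 pairs. These values cannot settle whether the numbers pair samples. With the sample number as a replicate block, genes called came to 178 at LP day 7 and 41 at day 28 against SPs and 6 for day 28 against day 7, and NR1D2 (log2 0.91) and CIART (2.01) were called at day 7. With parity as a covariate there were 334, 154 and 10, with NR1D1 at 1.03, NR1D2 at 0.86, CIART at 1.99 and BHLHE41 at 1.08 called at day 7 and CIART at 1.81 at day 28. DESeq2 called 2 genes at LP day 1, 357 at day 7 (CIART at 2.00 included), 346 at day 28, 14 for day 7 against day 1, 36 for day 28 against day 7, 264 and 2 by parity in LP days 7 and 28 and in SPs with LP day 1, and 16 for the difference of the 2. Library size alone gave 24 at day 7, 6 for day 28 against day 7, 2 for the difference, and 20 and 25 at day 28 within odd and even numbers. No filter gave 8 for day 28 against day 7, 1 by parity in SPs with LP day 1 and 12 for the difference. GH1 as a covariate gave 71 at day 7 and 3 for day 28 against day 7, where all groups in a single fit gave 4. SP samples 2, 3 and 5 alone gave 6 at day 7 and 48 at day 28. For day 7 against day 1, the 2 number sets as a covariate, added after seeing the data, and LP day 1 samples 3 and 4 summed each gave 1, and leaving both out gave 2 for the difference. Fits of the compared samples alone gave 100 and 34 within even numbers at days 28 and 7, and CIART at 2.18 lost its call at day 28 within odd numbers. Day 7 alone gave 22 genes by parity and day 28 alone 5, where NR1D1 (-0.95), CIART (-1.91) and BHLHE41 (-0.54) were not called and NR1D2 turned to 0.23, as it did in LP day 1 alone (0.22). With group and parity means removed, r fell to 0.17 for NR1D1 and NR1D2, 0.21 for NR1D2 and CIART and 0.42 for NR1D2 and BHLHE41, and the 3 calls were lost. The causes were not tested.

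Leaving out 1 sample moved the genes called between 0 and 4 at LP day 1, 7 and 113 at day 7, 41 and 110 at day 28, 1 and 6 for day 7 against day 1, 1 and 5 for day 28 against day 7, 0 and 1 by parity in SPs with LP day 1, and 2 and 9 for the difference. Within odd numbers the ranges were 13 to 23 at day 7 and 14 to 33 at day 28, and within even numbers 1 to 8 and 5 to 32. Log2 values ran from -0.0057 to 0.38 for NR1D1 at LP day 1, -0.72 to 0.066 for CIART from day 7 to day 28, -1.43 to -1.07 for BHLHE41 and -0.38 to 0.092 for NR1D2 by parity in LP days 7 and 28 and in SPs with LP day 1, 1.34 to 1.87 for NR1D1 and 2.10 to 2.71 for CIART at day 7 within odd numbers, and 1.61 to 2.57 for CIART at day 28 within odd numbers. CIART counts limit precision on SPs and in LP day 1 sample 4.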
